A study of Mus musculus with 4 samples.

Results

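The enzymes that add or remove methyl and acetyl groups on histones were followed as a set of 71 genes among the 11598 genes of a ribosome profiling table from mouse spermatocytes. A gene was a member when its symbol began with Kdm, Kmt, Setd, Suv, Prmt, Hdac or Kat in the numbered form of those families, or was *Ehmt1*, *Ehmt2* or one of *Sirt1* to *Sirt7*. No measured value entered this rule, but the set was chosen with earlier results of these data known. By family and known activity the members were put into 10 classes. They are the H3K4 methyltransferases (8 genes), H3K9 methyltransferases (6), H3K36 and H4K20 methyltransferases (4) and other SET domain proteins (4). The H3K4 demethylases (6) and the H3K9, H3K36 and H3K27 demethylases (12) follow. The rest are the protein arginine methyltransferases (7), zinc-dependent histone deacetylases (11), sirtuins (7) and lysine acetyltransferases (6). All 71 members are protein coding. The names follow the families and not the substrate, so that several members act mainly on proteins other than histones, among them HDAC6 and SIRT2 on tubulin and SETD3 on actin.

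Ribosome-protected fragments (RPFs) had been sequenced from leptotene/zygotene spermatocytes, the cells of early meiotic prophase, which were sorted by flow cytometry from testes at 12 dpp. The control libraries carry the genotype wild type in the labels and come from littermates in the study's methods. In *Eef1g*-cKO mice, a floxed *Eef1g* allele on a C57BL/6J background was deleted by *Stra8*-GFPCre, which acts in male germ cells from the spermatogonial stage on, so that other testis cells keep the gene. *Eef1g* encodes a subunit of the translation elongation factor complex that reloads eEF1A, and the comparison asks which transcripts carried more or fewer ribosomes without it. Each genotype had 2 libraries, described as independent biological replicates.

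Histone lysine methyltransferases ("writers") place methyl groups that mark active promoters (H3K4), transcribed bodies (H3K36) or silent chromatin (H3K9 and H3K27), and demethylases ("erasers") take them away. Acetyltransferases and deacetylases do the same with acetyl groups, which loosen the contact between histones and DNA. In male meiosis H3K4 methylation marks the sites of programmed DNA breaks and H3K9 methylation is needed for homologous chromosomes to pair, for heterochromatin and for silencing of the sex chromosomes.

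Levels are given in FPKM, the fragments per kilobase of gene per 1000000 fragments counted on genes. An FPKM of RPFs reflects both how much mRNA was present and how many ribosomes it carried, and these cannot be told apart here. The FPKM rest on totals of 2479504 and 1384282 counted reads for control and 223906 and 407979 for *Eef1g*-cKO, so that 1 read on a gene of 1 kb was worth 0.403 and 0.722 FPKM in control but 4.47 and 2.45 FPKM in *Eef1g*-cKO. The median member had 144 and 74 reads in control against 14 and 24 in *Eef1g*-cKO. *Eef1g* itself had 107 and 58 reads in control against 0 and 4 in *Eef1g*-cKO. Of 9 leptotene/zygotene markers, 6 rose (among them *Sycp3*, *Hormad1* and *Dmc1*) and *Stra8* fell, and their summed level was 2084 and 1687 FPKM in control against 4521 and 4061 FPKM in *Eef1g*-cKO. Of 7 tested spermatogonial markers 5 fell, and the sum over the 8 in the table was 1395 and 1625 FPKM in control against 227 and 212 FPKM in *Eef1g*-cKO. The 3 pachytene spermatocyte and spermatid markers in the table summed to 395 and 341 FPKM in control against 1458 and 1369 FPKM in *Eef1g*-cKO. That sum was made almost wholly by *Hist1h1t* (388 and 301 FPKM against 1458 and 1354 FPKM). *Tnp1* and *Spaca1* had log2 fold changes of -1.94 and -0.93 on few reads. In the paper, staining of adult testis sections showed no H1T, the protein of *Hist1h1t*, in *Eef1g*-cKO spermatocytes, which arrested at zygotene. That is protein at a later age and not RPFs. The 6 Sertoli cell markers summed to 520 and 115 FPKM in control against 109 and 72.1 FPKM in *Eef1g*-cKO. Most of this was *Clu*, at 458 and 96.3 FPKM in control against 91.4 and 65.1 FPKM in *Eef1g*-cKO, and the others had few reads there. Leydig cell and peritubular markers stayed at or below 43.8 FPKM in each library, and no macrophage marker was in the table. Markers of several germ cell stages thus differed between the genotypes. Staining of sorted cells in the paper found comparable shares of leptotene/zygotene spermatocytes in control and *Eef1g*-cKO. A minority of the sorted cells in each genotype did not count as such spermatocytes. That share takes leptotene and zygotene together and is of cells, not of RPFs. The part of these marker differences in any result below was not tested. Fewer cells of a type and less RNA per cell cannot be told apart in such bulk samples.

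The start codon of each main message was looked at because ribosomes begin there. The windows below are shown for *Hdac6*, *Prmt1* and *Sirt2*, which passed the adjusted rule given further on, and for the paralogs *Kdm5b* and *Kdm5c*, which did not pass it but differed in direction. No window was at hand for *Ehmt2*, the other gene that passed. Each runs from 12 bases before the start codon to 6 bases after it in the principal GENCODE transcript (GRCm38), and capitals mark the base at position -3, the ATG and the base at +4, counted from the A of the ATG as +1.
*Hdac6*: ggctcttcaGccATGAcctcc
*Prmt1*: actcgggtgAagATGGcggca
*Kdm5b*: caggtcgcgGtgATGGagccg
*Sirt2*: caccccgttCccATGGccgag
*Kdm5c*: ctcgggcccAccATGGagctg
The start codons lie at chrX:7947212-7947214 for *Hdac6* and chr7:44986316-44986318 for *Prmt1*, both on the minus strand. Those on the plus strand are at chr1:134560339-134560341 for *Kdm5b*, chr7:28766852-28766854 for *Sirt2* and chrX:152233561-152233563 for *Kdm5c*. A purine at -3, the base that most helps a start codon to be chosen, is present in *Hdac6*, *Prmt1*, *Kdm5b* and *Kdm5c*, and *Sirt2* has a C there. Over the members, 61 of 69 with a window (88.4%) had a purine at -3, against 87.0% of 9874 genes tested. A purine at -3 together with G at +4 stood in 58.0% of members against 46.7% of all genes. Members whose *Eef1g*-cKO libraries were both above control held this pair of bases in 63.2% (19 with a window) and those with both below in 60.7% (28 with a window), so that the shares differed little between the directions.

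The levels of 68 members were tested with limma on log2(FPKM + 1) among the 10475 genes whose mean reached 1 FPKM, and *Hdac7*, *Hdac9* and *Setd1b* were below that mean. The added 1 FPKM shrinks fold changes of low genes on this scale. With a library without reads the change can still come out larger, as for *Suv39h2* (-2.01 in limma, -1.50 in edgeR). As a set the members stayed close to the rest of the table. Their median log2 fold change, *Eef1g*-cKO over control, was -0.19 (quartiles -0.71 and 0.40), beside -0.23 over all genes tested. In 20 members both *Eef1g*-cKO libraries were above both control libraries, in 29 both were below and in 19 the genotypes overlapped, while over all genes 24.6% were above and 37.7% below. The sum of all 71 members was 7905 and 7945 reads per 1000000 reads on genes (RPM) in control against 6887 and 6861 in *Eef1g*-cKO, 0.87 times the control level. The genotypes did not overlap in this sum, and the exact two-sided permutation test gave p = 0.333, the smallest that 2 against 2 libraries allow. Much of the difference lay in *Hdac6* and *Kdm5b*, so it is no measure of a fall shared by the members. The deacetylases summed to 0.40 times control, and to 0.90 times without *Hdac6*. The H3K4 demethylases summed to 0.85 times, and to 1.29 times without *Kdm5b*. The sum of all members without these genes was not calculated.

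**Figure D1:**
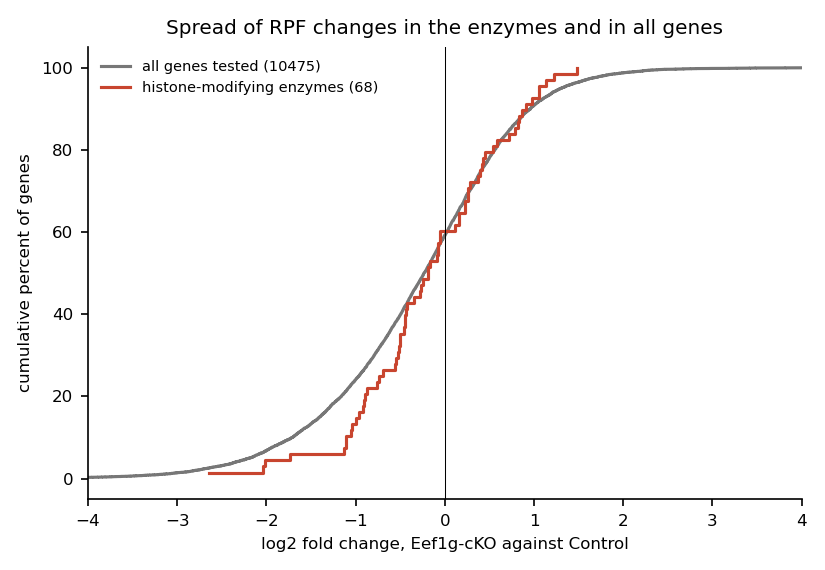
Cumulative percent of genes (y axis) by log2 fold change in RPF level, *Eef1g*-cKO over control (x axis, limma on log2(FPKM + 1)), for the 68 members tested and all 10475 genes tested. The curves lie close to each other around their medians of -0.19 and -0.23.

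Few single enzymes passed the test. By the adjusted rule (limma adjusted p below 0.05, log2 fold change beyond 1 in size) *Sirt2* rose and *Hdac6*, *Ehmt2* and *Prmt1* fell. This was 1 member upward and 3 downward of 68, beside 2.87% and 4.97% of all genes (7.85% in either direction), so the members were near the background. At any fold size 5 members passed, *Kdm5b* being the fifth, beside 7.96% of all genes. By unadjusted p, 5 members rose and 7 fell, beside 7.32% and 16.3% of all genes. Centring each library on its median moved the median of the members to 0.03 and that of all genes from -0.23 to -0.02. The unadjusted split was then 11 up and 3 down and the adjusted one 2 and 2. Shares over all genes were not counted at that setting, so this split is no result about the members. edgeR on the recovered reads called 6 of 59 members higher and 4 lower, beside 8.75% and 11.2% of the 8056 genes it tested, and at any fold size 14 members, beside 24.7%. DESeq2 called 2 members higher and 3 lower, beside 5.94% and 5.34%. With Control 1 or Control 2 left out, when the *Eef1g*-cKO libraries alone give the spread, no member passed the adjusted rule, though the log2 fold changes stayed similar (-2.73 and -2.57 for *Hdac6*); the unadjusted counts were then 1 up and 6 down without Control 1 and 0 up and 3 down without Control 2. Without *Eef1g*-cKO 1 the adjusted counts were 0 up and 2 down, and without *Eef1g*-cKO 2 they were 2 up and 5 down.

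**Figure D2:**
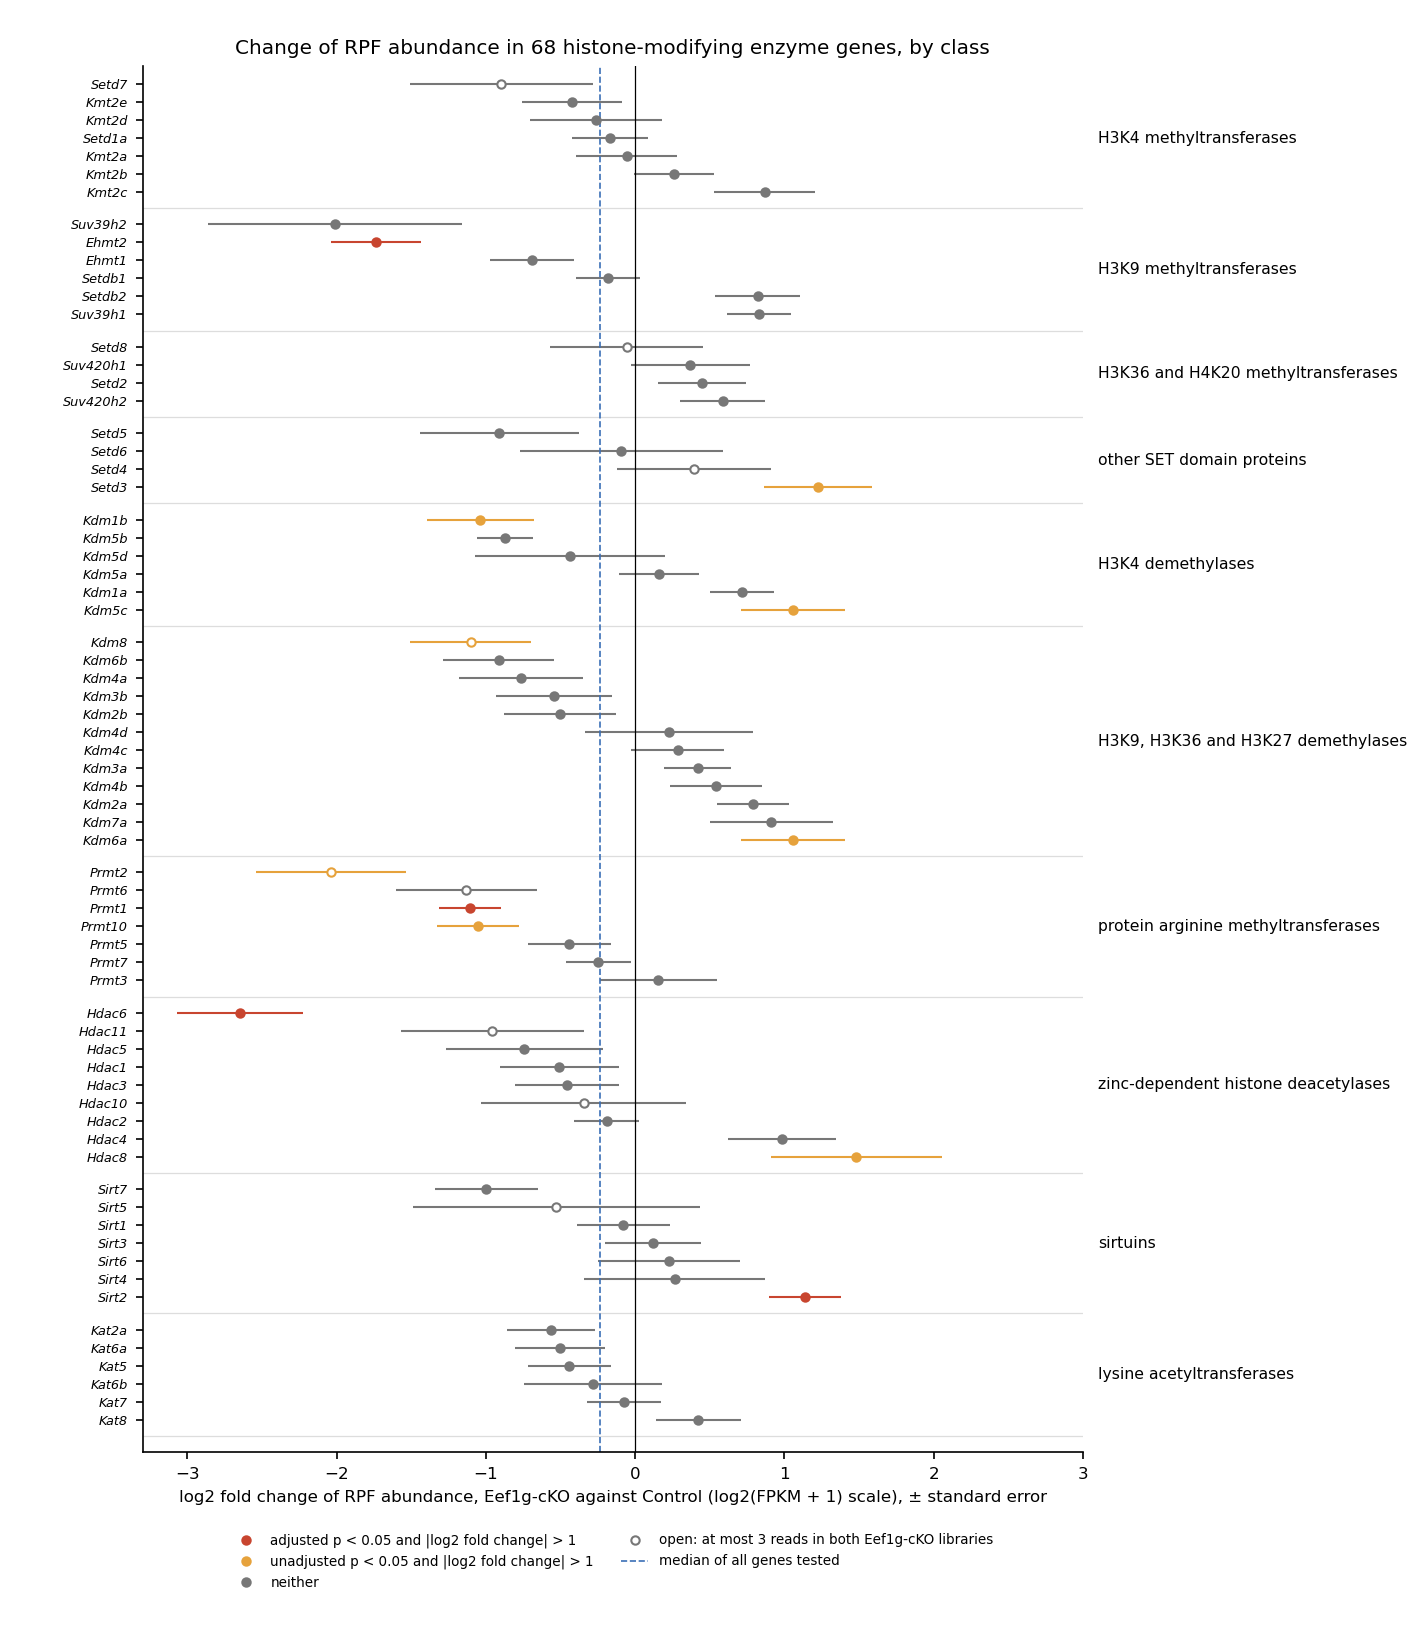
Log2 fold change in RPF level of each tested member, *Eef1g*-cKO over control (x axis, limma on log2(FPKM + 1)), by enzyme class, with bars of 1 standard error. Red and orange points passed the adjusted and the unadjusted rule, open points had at most 3 reads in each *Eef1g*-cKO library, and the dashed line is the median of all genes tested. *Hdac6* at -2.65 lies farthest to the left and *Hdac8*, with few reads, farthest to the right at 1.48.

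Among the deacetylases, which remove acetyl groups with a bound zinc ion, the cytoplasmic tubulin deacetylase gene *Hdac6* (chrX:7930116-7948047, RefSeq on GRCm38) had the largest change among the members that passed the adjusted rule. Its level was 137 and 153 FPKM in control against 14.02 and 34.9 FPKM in *Eef1g*-cKO, from 1403, 875, 13 and 59 reads. Both *Eef1g*-cKO libraries lay far below both controls, a fall by 2.65 on the log2 scale (SE 0.42, limma adjusted p = 0.0335), or 0.169 times the control mean in FPKM. The fall had an adjusted p of 1.41e-05 in edgeR and ranged from -3.28 to -2.02 over 15 alternatives, in 10 of which it passed the adjusted rule. Its limma adjusted p was 0.285 without Control 1 and 0.342 without Control 2, at a fold change of the same direction.

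The class I genes *Hdac1*, *Hdac2* and *Hdac3* did not pass the test. *Hdac2*, which works in the NuRD, Sin3 and CoREST complexes, had 85.1 and 69.2 FPKM in control against 64.6 and 69.7 in *Eef1g*-cKO, and the genotypes overlapped. Its close relative *Hdac1* was much lower throughout, at 7.57 and 8.43 FPKM in control against 4.53 and 6.22 in *Eef1g*-cKO. *Hdac3*, the catalytic subunit of the NCoR complexes, had 17.5 and 22.0 FPKM in control against 17.8 and 11 in *Eef1g*-cKO. Of the 3, *Hdac1* was below control in both *Eef1g*-cKO libraries and the others overlapped, with log2 fold changes of -0.51 for *Hdac1*, -0.19 for *Hdac2* and -0.46 for *Hdac3*. The class IIa gene *Hdac4* went the other way, from 6.35 and 5.32 FPKM to 11.3 and 13.7 FPKM, a log2 fold change of 0.98 whose adjusted p was 0.136. *Hdac8*, also of class I, passed only the unadjusted rule and rested on 5 and 1 reads in control against 1 and 4 reads in *Eef1g*-cKO. The ratio of its pooled reads per library size was 5.10, with an exact 95% interval of 1.23 to 20.04 that covers counting error only. *Hdac5*, *Hdac10* and *Hdac11* had between 0 and 7 reads in the *Eef1g*-cKO libraries, and the untested *Hdac7* and *Hdac9* had at most 9 reads in any library, so that counting error is large for them. The 11 deacetylases summed to 860 and 900 RPM in control against 295 and 414 in *Eef1g*-cKO, 0.40 times the control level. *Hdac6* gave 65.8% and 70.2% of that sum in control and 19.7% and 34.9% in *Eef1g*-cKO. Without *Hdac6* the other deacetylases summed to 294 and 268 RPM in control against 237 and 270 in *Eef1g*-cKO, 0.90 times, with overlapping genotypes.

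The sirtuins, which remove acyl groups at the cost of NAD+, held the single enzyme that rose by the adjusted rule. *Sirt2* (chr7:28766752-28788665), which like HDAC6 deacetylates tubulin, had 27.9 and 22.1 FPKM in control against 55.1 and 56.6 FPKM in *Eef1g*-cKO. The libraries of each genotype lay close together and apart from the other genotype, a log2 fold change of 1.14 (SE 0.24, limma adjusted p = 0.0484). It passed the adjusted rule in 6 of 15 alternatives, with adjusted p from 0.0103 to 0.296, and its fold change stayed between 0.71 and 1.35. Of the tests on reads, edgeR called it (adjusted p = 0.0103) and DESeq2 did not (adjusted p = 0.0523). With any 1 library left out it did not pass, at adjusted p from 0.0577 to 0.212. *Sirt7*, the nucleolar H3K18 deacetylase, was at 51.3 and 75.4 FPKM in control against 23.4 and 40.0 FPKM in *Eef1g*-cKO, a log2 fold change of -0.997 with an adjusted p of 0.12. *Sirt1* overlapped between genotypes at 36.1 and 32.9 against 42.3 and 25.1 FPKM, as did *Sirt3*, *Sirt4*, *Sirt5* and *Sirt6*. The sirtuin sum was 333 and 349 RPM in control against 375 and 326 in *Eef1g*-cKO. Set against each other within a library, the ratio of *Sirt2* to *Hdac6* was 0.204 and 0.145 in control against 3.93 and 1.62 in *Eef1g*-cKO, so that the lower of these tubulin deacetylases in control was the higher in *Eef1g*-cKO. This pair and the others named further on were chosen after their values were seen and carry no test.

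**Figure D3:**
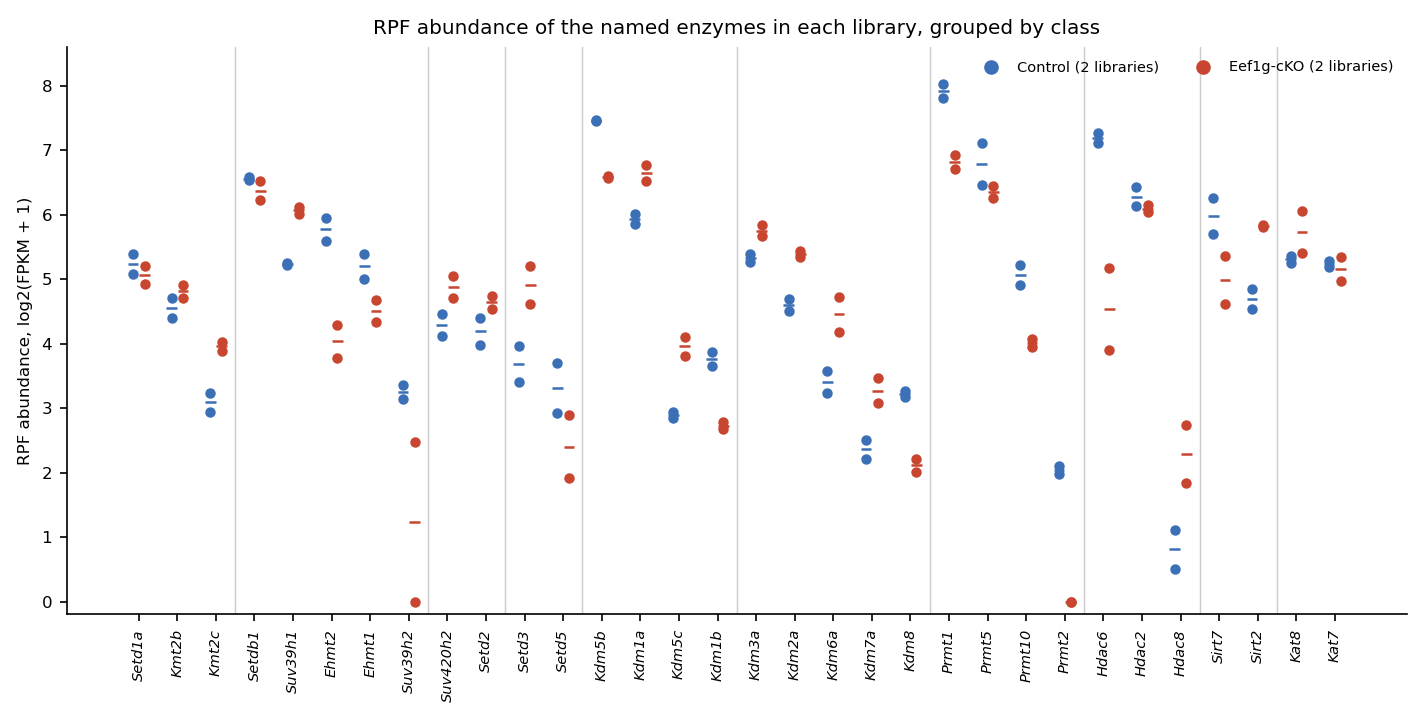
RPF level as log2(FPKM + 1) (y axis) of the 32 members chosen by the naming rule, grouped by class, with a point for each of the 2 control (blue) and 2 *Eef1g*-cKO (red) libraries and a dash at the mean. *Hdac6*, *Ehmt2* and *Prmt1* lie lower in both *Eef1g*-cKO libraries and *Sirt2* lies higher.

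The acetyltransferases, which place acetyl groups on histone lysines, gave no call. *Kat8*, the H4K16 enzyme of the MSL and NSL complexes, had 40.3 and 37.0 FPKM in control against 41.6 and 65.2 in *Eef1g*-cKO, and *Kat7*, the H3K14 enzyme that also serves replication origins, 35.4 and 37.9 against 39.7 and 30.4. The second overlapped between genotypes and the first did not, at log2 fold changes of 0.42 and -0.07. *Kat5*, *Kat2a* and *Kat6a* were lower in both *Eef1g*-cKO libraries, with log2 fold changes of -0.44, -0.56 and -0.51 and adjusted p of at least 0.253. The 6 genes summed to 605 and 612 RPM in control against 545 and 502 in *Eef1g*-cKO.

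Of the H3K9 methyltransferases, *Ehmt2* (chr17:34898463-34914073), which encodes G9a and places H3K9 mono- and dimethylation in euchromatin, fell. It had 47.1 and 61.0 FPKM in control against 18.7 and 12.6 FPKM in *Eef1g*-cKO, from 475, 344, 17 and 21 reads. The genotypes were well apart, with a log2 fold change of -1.74 (SE 0.30, limma adjusted p = 0.0365), and the fold change stayed between -2.001 and -1.47 over 15 alternatives. Its limma adjusted p was 0.235 without Control 1 and 0.307 without Control 2. *Ehmt1*, whose product GLP pairs with G9a, had 31.1 and 40.9 FPKM in control against 24.5 and 19.2 in *Eef1g*-cKO, lower in both libraries but not past the test (log2 fold change -0.69, adjusted p = 0.165). The ratio of *Ehmt1* to *Ehmt2* was 0.661 and 0.670 in control against 1.31 and 1.52 in *Eef1g*-cKO, so the partner that was lower in control was the higher in *Eef1g*-cKO.

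The trimethylating H3K9 enzymes did not move as one. *Setdb1*, which acts on retrotransposons and on the sex chromosomes in meiosis, was the highest of the class and nearly level, at 94.9 and 91.5 FPKM in control against 73.8 and 91.0 in *Eef1g*-cKO. *Suv39h1*, an enzyme of pericentric heterochromatin, had 36.4 and 37.1 FPKM in control against 63.3 and 68.8 in *Eef1g*-cKO, a log2 fold change of 0.83 with limma adjusted p = 0.0662 and edgeR adjusted p = 0.00755. *Suv39h2*, its testis-enriched paralog, had 83 and 55 reads in control against 0 and 8 in *Eef1g*-cKO, or 7.82 and 9.28 against 0 and 4.58 FPKM. The pooled ratio of its reads per library size was 0.354 (exact 95% interval 0.150 to 0.718, counting error only), while limma gave a log2 fold change of -2.01 with an adjusted p of 0.176, the spread between the *Eef1g*-cKO libraries being wide. *Suv39h1* was 4.65 and 3.99 times *Suv39h2* in control and 15.0 times in *Eef1g*-cKO 2, and has no ratio in *Eef1g*-cKO 1, where *Suv39h2* had no read. Because the paralogs are alike in parts, reads could have been split between them. *Setdb2* was at 13.4 and 11.4 FPKM in control against 23.6 and 21.8 in *Eef1g*-cKO (adjusted p = 0.12). The sum of the 6 genes went from 988 and 1081 to 826 and 887 RPM, and without *Ehmt2* it was 796 and 832 in control against 750 and 836 in *Eef1g*-cKO, which overlap.

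Of the arginine methyltransferases, 6 of 7 were lower in both *Eef1g*-cKO libraries, beside 37.7% of all genes, and of these *Prmt2* and *Prmt6* had at most 3 reads in each *Eef1g*-cKO library. *Prmt1* (chr7:44976755-44986420), the main source of asymmetric dimethylarginine and of H4R3 methylation, had 224 and 261 FPKM in control against 104 and 120 FPKM in *Eef1g*-cKO and was the member with the highest mean level. It fell by 1.11 on the log2 scale (SE 0.21, limma adjusted p = 0.0394) and was called in 8 of 15 alternatives, with fold changes between -1.22 and -0.89. Its limma adjusted p was 0.188 without Control 1, 0.242 without Control 2 and 0.0992 without *Eef1g*-cKO 1. *Prmt10*, now named *Prmt9*, which dimethylates a splicing factor, had 29.0 and 36.4 FPKM against 14.5 and 15.9 FPKM. It passed the unadjusted rule (log2 fold change -1.05, adjusted p = 0.0679) and edgeR's rule (adjusted p = 0.0427). *Prmt2* had 16 and 10 reads in control and none in *Eef1g*-cKO. It passed the unadjusted rule, and the adjusted rule only with no filter on low values (adjusted p = 0.0491). In each shallow library 3 reads would exceed its control level in FPKM, and a bound on its fold was not calculated. *Prmt5*, the main symmetric dimethylating enzyme, which germ cells need, had 87.2 and 138 FPKM in control against 86.2 and 75.2 in *Eef1g*-cKO, its controls differing more from each other than the lower one did from *Eef1g*-cKO. *Prmt7* and *Prmt6* were also lower in both libraries without a call and *Prmt3* overlapped. The median log2 fold change of the class was -1.05. Its sum was 833 and 1092 RPM in control against 616 and 581 in *Eef1g*-cKO, 0.62 times. Without *Prmt1* it was 495 and 699 RPM in control against 460 and 400 in *Eef1g*-cKO, 0.72 times. The controls then differed more from each other than Control 1 did from either *Eef1g*-cKO library.

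Among the H3K4 demethylases the paralogs *Kdm5b* and *Kdm5c* differed in direction. *Kdm5b* (chr1:134560178-134632878), which removes H3K4 di- and trimethylation, had 176 and 174 FPKM in control against 96.4 and 93.8 FPKM in *Eef1g*-cKO. Its libraries agreed closely within each genotype, and the adjusted p was 0.0495, but its log2 fold change of -0.87 (SE 0.19) kept it out of the calls. That adjusted p ranged from 0.00583 in DESeq2 to 0.168 without Control 2, and was above 0.05 with any 1 library left out. *Kdm5c* (chrX:152233198-152279102), the X-linked paralog with the same activity, had 6.22 and 6.69 FPKM in control against 12.97 and 16.2 FPKM in *Eef1g*-cKO. It passed the unadjusted rule (log2 fold change 1.06, SE 0.35, limma adjusted p = 0.107) and was called in edgeR (adjusted p = 0.00203) and DESeq2 (adjusted p = 0.0127). *Kdm5a* overlapped at 43.8 and 34.4 against 50.1 and 37.8 FPKM, and the Y-linked *Kdm5d* had 54, 11, 1 and 6 reads. The ratio of *Kdm5c* to *Kdm5b* was 0.0354 and 0.0384 in control against 0.135 and 0.173 in *Eef1g*-cKO, still far below 1.

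The flavin-dependent H3K4 demethylases also differed in direction. *Kdm1a* (LSD1), the demethylase of the CoREST complex, had 56.9 and 63.5 FPKM in control against 108 and 91.1 in *Eef1g*-cKO, with limma adjusted p = 0.0904 and edgeR adjusted p = 0.0142 at a fold under the limit. *Kdm1b* (LSD2) had 11.6 and 13.6 FPKM in control against 5.37 and 5.90 in *Eef1g*-cKO, past the unadjusted rule only (log2 fold change -1.04, adjusted p = 0.118). The ratio of *Kdm1a* to *Kdm1b* was 4.88 and 4.66 in control against 20.1 and 15.4 in *Eef1g*-cKO. The class sum was 1908 and 1817 RPM in control against 1657 and 1503 in *Eef1g*-cKO. *Kdm5b* alone gave 58.1% and 60.4% of it in control against 36.7% and 39.3% in *Eef1g*-cKO, and without it the sum was 801 and 719 in control against 1050 and 912 in *Eef1g*-cKO, 1.29 times.

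**Figure D4:**
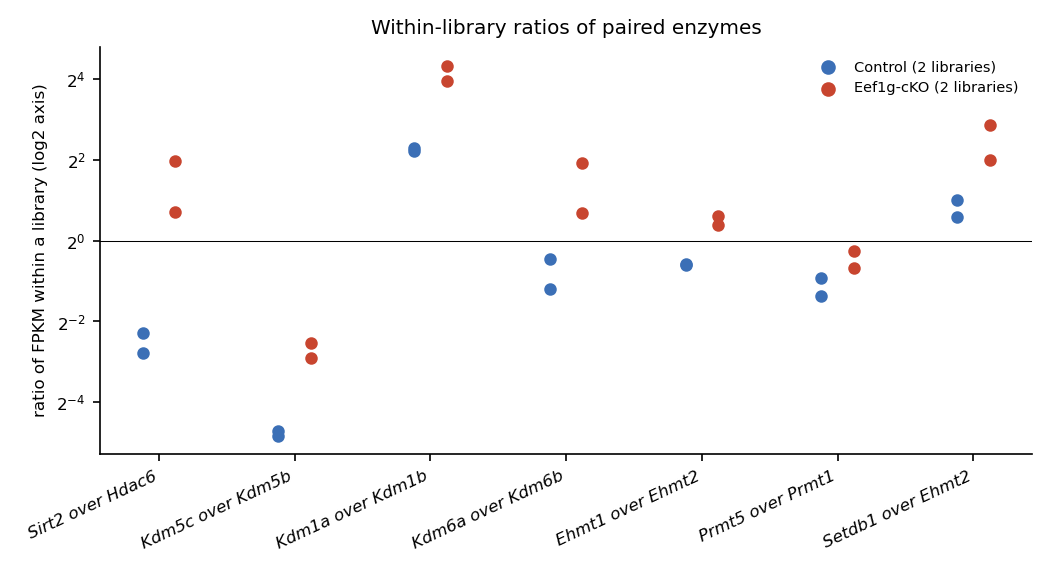
Ratio of FPKM of paired enzymes within each library (log axis), one point per library, control and *Eef1g*-cKO. The *Sirt2* to *Hdac6* ratio moves from 0.204 and 0.145 in control to 3.93 and 1.62 in *Eef1g*-cKO, and the pairs were chosen after their values were seen.

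The demethylases of H3K9, H3K36 and H3K27 gave no adjusted call. *Kdm6a* (UTX), an X-linked H3K27 demethylase, had 10.9 and 8.37 FPKM in control against 25.4 and 17.2 FPKM in *Eef1g*-cKO (log2 fold change 1.06, SE 0.35, adjusted p = 0.108), and edgeR called it (adjusted p = 0.0137). Its paralog *Kdm6b* went from 14.9 and 19.1 FPKM to 6.72 and 10.7 FPKM (log2 fold change -0.91, adjusted p = 0.164), and the ratio of *Kdm6a* to *Kdm6b* from 0.728 and 0.437 to 3.79 and 1.61. *Kdm2a*, an H3K36 demethylase that binds CpG islands, had 21.7 and 24.96 FPKM in control against 42.4 and 39.5 in *Eef1g*-cKO, with limma adjusted p = 0.0937 and edgeR adjusted p = 0.00706 under the fold limit. *Kdm7a*, which removes H3K9 and H3K27 dimethylation, was called in edgeR (adjusted p = 0.0241) and not in limma, at 4.69 and 3.63 against 7.48 and 10.0 FPKM. *Kdm3a*, an H3K9 demethylase that spermatids need, was the highest of the class, at 41.1 and 37.5 FPKM in control against 56.1 and 49.6 FPKM in *Eef1g*-cKO, and did not pass. *Kdm8* had 52 and 27 reads in control against 2 and 3 in *Eef1g*-cKO and passed only the unadjusted rule, with a pooled ratio of 0.387 (exact 95% interval 0.122 to 0.942, counting error only). In this class 6 of 12 members were above control in both *Eef1g*-cKO libraries and 5 below, beside 24.6% and 37.7% of all genes, and the sum was 975 and 936 RPM in control against 1130 and 1179 in *Eef1g*-cKO.

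The H3K4 methyltransferases gave no call in limma, and their sum overlapped between the genotypes at 1008 and 834 RPM in control against 933 and 1037 in *Eef1g*-cKO. *Setd1a*, the main source of H3K4 trimethylation with its paralog, had 40.8 and 32.9 FPKM in control against 29.4 and 35.95 in *Eef1g*-cKO. *Kmt2b* was at 25.1 and 20.1 FPKM in control against 25.3 and 29.2 in *Eef1g*-cKO. *Kmt2c*, which monomethylates enhancers, was the member of this class that edgeR (adjusted p = 0.00467) and DESeq2 (adjusted p = 0.0234) called, at 8.39 and 6.70 against 13.8 and 15.3 FPKM, and limma gave it an adjusted p of 0.152. Its partner paralog *Kmt2d* had 4.96 and 4.48 FPKM in control against 3.15 and 4.45 in *Eef1g*-cKO, lower in both libraries without a call. *Kmt2a* overlapped between the genotypes.

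Of the H3K36 and H4K20 enzymes 3 of 4 were above control in both *Eef1g*-cKO libraries, beside 24.6% of all genes, without a call. *Setd2*, the H3K36 trimethylating enzyme, had 20.1 and 14.8 FPKM in control against 25.7 and 22.3 in *Eef1g*-cKO. *Suv420h2*, now *Kmt5c*, which trimethylates H4K20 in heterochromatin, had 16.4 and 21.01 against 31.97 and 25.2. The class sum was 268 and 232 RPM in control against 380 and 309 in *Eef1g*-cKO, without overlap. Of the other SET domain proteins, *Setd3*, the actin histidine methyltransferase, had 14.7 and 9.54 FPKM in control against 36.1 and 23.4 in *Eef1g*-cKO. It passed the unadjusted rule (log2 fold change 1.23, SE 0.36, adjusted p = 0.0871) and was called by edgeR (adjusted p = 0.0218). *Setd5* had 12.0 and 6.59 FPKM in control against 2.76 and 6.44 in *Eef1g*-cKO, below control in both libraries and not past the test.

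**Figure D5:**
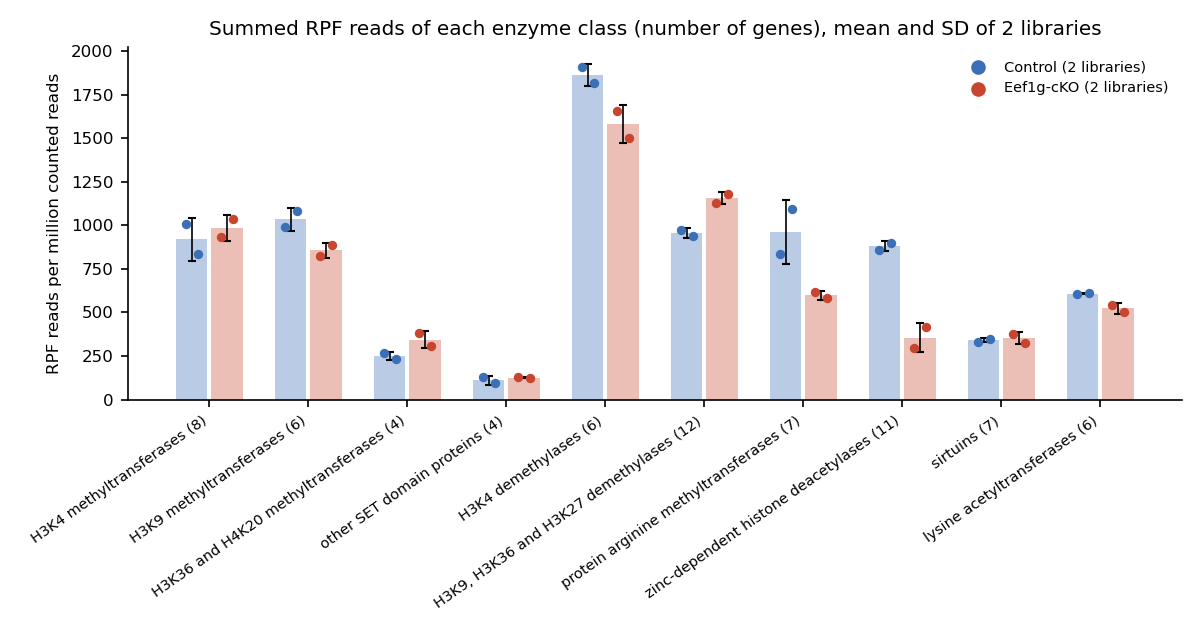
Sum of RPF reads on genes in RPM for each of the 10 enzyme classes, with bars at the mean of the 2 control (blue) or 2 *Eef1g*-cKO (red) libraries, error bars of 1 SD and a point per library. The deacetylases go from 860 and 900 in control to 295 and 414 in *Eef1g*-cKO and the arginine methyltransferases from 833 and 1092 to 616 and 581.

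Summed by class, the genotypes did not overlap in 7 of the 10 classes' sums, each with an exact two-sided permutation p of 0.333, the lowest possible, and no class could pass a threshold of 0.05. Among single genes, 24.6% were above and 37.7% below control in both *Eef1g*-cKO libraries, so this count is no result about the classes. Single genes also weighed on it. The deacetylases without *Hdac6* and the H3K9 methyltransferases without *Ehmt2* overlapped. Without *Kdm5b* the H3K4 demethylases lay above control, at 1.29 times. Leaving out Control 1 raised the log2 ratio of the other SET domain proteins from 0.20 to 0.45 and leaving out Control 2 turned it to -0.0160, and leaving out *Eef1g*-cKO 2 took that of the deacetylases from -1.31 to -1.58.

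Subunits and further enzymes of the same pathways were read from 4 lists drawn up by complex and activity, 87 genes tested in all, with a median log2 fold change of -0.10. By the adjusted rule 3 rose and 3 fell, beside 2.87% and 4.97% of all genes, so these counts too were near the background. *Rbbp7*, a histone chaperone of deacetylase and Polycomb complexes, rose from 98.0 and 126 FPKM to 291 and 299 FPKM, and *Gps2*, a subunit of the NCoR complex, rose from 23.5 and 30.8 FPKM to 106 and 106 FPKM. *Rcor1*, the scaffold that joins LSD1 to HDAC1 and HDAC2, rose from 10.2 and 5.84 FPKM to 31.2 and 29.7 FPKM, while its paralog *Rcor2* fell from 34.2 and 41.2 FPKM to 13.3 and 8.52 FPKM. These paralogs moved in opposite directions, each past the test. *Cxxc1*, which brings the SETD1 enzymes to CpG islands, fell from 67.9 and 95.1 FPKM to 24.6 and 26.1 FPKM. *Trrap*, the scaffold of the TIP60 and SAGA acetyltransferase complexes, fell from 30.1 and 25.8 FPKM to 6.80 and 7.86 FPKM. Of the 24 other writers and erasers none passed limma's adjusted rule, while 1 rose and 3 fell by unadjusted p. The edgeR test covered 21 of them and called 2 higher and 2 lower, beside 8.75% and 11.2% of all genes it tested. *Prdm9*, which places H3K4 trimethylation at recombination hotspots, was at 19.3 and 19.0 against 19.4 and 28.3 FPKM. The Polycomb H3K27 methyltransferase gene *Ezh2* had 46.0 and 36.6 FPKM in control against 95.5 and 67.1 in *Eef1g*-cKO, past edgeR's rule and not limma's. In the deacetylase complex list 2 genes rose and 1 fell of 21 tested, and in the COMPASS and Polycomb list 1 rose and 1 fell of 15. Without Control 1 or Control 2 no related gene passed the adjusted rule; by unadjusted p, 4 of the 87 rose and 11 fell with all libraries, beside 7.32% and 16.3% of all genes.

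Members were compared with features of their messages that had no part in choosing them. The share of codons ending in G or C (GC3) had a median of 52.6% in the 20 members above control and 63.7% in the 29 below, close to 54.0% and 63.6% over all genes split the same way. Across the 68 members Spearman's rho between GC3 and the log2 fold change was -0.29, against -0.30 across 10114 genes, and for members not at the floor it was -0.19. Genes are not independent replicates and the points share the same 4 libraries, so these are descriptions. With gene length rho was 0.06 over members and 0.11 over all genes. Of the 5 X-linked members tested, *Kdm5c*, *Kdm6a*, *Suv39h1* and *Hdac8* were above control in both *Eef1g*-cKO libraries and *Hdac6* below, while 31.4% of all 404 X-linked genes were above, a split that was looked at after the values were seen. *Hdac8* counts there on 1 read in *Eef1g*-cKO 1, worth 2.59 FPKM, which exceeds both its control levels (1.17 and 0.419 FPKM).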

How the data were processed

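RPFs of sorted leptotene/zygotene spermatocytes were measured in 2 control and 2 *Eef1g*-cKO libraries. The authors deposited FPKM values, which are relative to reads counted on genes, and normalized counts per library (a signal, made by the authors by scaling raw counts with size factors). The normalized counts came back as whole reads for 100% of values (tolerance 0.01). The deposited log2 fold changes, p-values and adjusted p-values of the authors' own comparison were not used. The submitters' processing notes name cutadapt, Bowtie and STAR and the builds mm10 and hg38; versions, roles, the counter and the annotation are not given in the sources used here. Genes with fewer than 10 reads over the 4 libraries are absent from the table. A floor of 3 reads (95% confidence) was used.

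Levels were tested with limma 3.58.1 (R 4.3.3, lmFit and eBayes with a trended prior) on log2(FPKM + 1), filtered at a mean of 1 FPKM, with Benjamini-Hochberg adjustment over all genes tested. Calls required a log2 fold change above 1 in size and p under 0.05, adjusted or unadjusted. edgeR 4.0.16 (quasi-likelihood, TMM) and DESeq2 1.42.0 ran on the recovered reads as alternatives, with other pseudocounts (0.1 and 5), no filter, a filter at 5 FPKM, median centring, an untrended prior, thinning to equal reads, the replicate number as a block and each library left out. Named genes were members called by any of these rules (both limma rules or edgeR), the 2 highest by mean FPKM in each class, and 5 H3K9 methyltransferases; other genes were added after their values were seen. Class sums used exact permutation tests. Symbols were matched to RefSeq on GRCm38 (67 members by symbol, 4 by an older one), and start codons and coding sequences came from GENCODE. Scripts were tested on simulated data. Intervals cover counting error only. The members, classes and lists were chosen with earlier results of these data known.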

Additional observations from a re-analysis of the deposited data

How the results depend on the processing

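Of 476 recalculated values for single named enzymes, 430 kept direction and side of the adjusted call rule (adjusted p and fold limit together). Most named enzymes had no call to lose. All 26 lost calls were of the 4 members called in the main fit. Their call held in 10 of 15 alternatives for *Ehmt2*, 10 for *Hdac6*, 8 for *Prmt1* and 6 for *Sirt2*. Another 14 values gained the call. A further 6 changed sign, all with changes near 0: *Hdac2* (0.0229), *Setd1a* (0.0458), *Setdb1* (0.0305) and *Kat7* (0.14) on median centring, and *Kat7* on thinning (0.16) and without *Eef1g*-cKO 2 (0.11). The adjusted call of 1 member up became 0 at pseudocount 0.1, with no filter, with an untrended prior and after thinning, 2 on median centring, 6 in edgeR and 2 in DESeq2. The 3 down became 0 at pseudocount 0.1, with an untrended prior and after thinning, where edgeR gave 4 and DESeq2 3 on all reads. By unadjusted p the 5 up became 2 at pseudocount 5, 11 on centring and 2 after thinning, and the 7 down became 3 at pseudocount 5, 3 on centring and 4 in DESeq2. The median of the members went from -0.19 to 0.0267 on centring and -0.0157 after thinning. Over all genes tested it went from -0.23 to -0.0189 on centring and -0.173 after thinning. Shares of all genes called were counted for the main fit, edgeR and DESeq2 only. Related genes, 3 up and 3 down by adjusted p, became 0 and 0 at pseudocount 0.1, with an untrended prior and after thinning, 5 and 8 in edgeR and 5 and 5 in DESeq2, and their 11 down by unadjusted p became 7 at pseudocount 5. Leaving out one library gave 0 to 2 members up and 0 to 5 down by adjusted p, 0 to 5 up and 3 to 11 down by unadjusted p, 0 to 5 related genes up and 0 to 10 down by adjusted p, and 5 to 15 related genes down by unadjusted p. Class sums as log2 ratios moved for all members from -0.21 to -0.26 over coding genes only and -0.14 with TMM library sizes, for the H3K9, H3K36 and H3K27 demethylases from 0.27 to 0.22 and 0.34, and for the acetyltransferases from -0.22 to -0.15 with TMM. Without one library they ranged from -0.0160 to 0.45 for other SET domain proteins, -0.87 to -0.48 for arginine methyltransferases, -1.58 to -1.09 for deacetylases and -0.28 to -0.16 for acetyltransferases. The cause was not tested in any of these. Depth limits the 12 members (16.9%) with 3 reads or fewer in each *Eef1g*-cKO library, a state of 32.7% of all genes.

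With the replicate number as a block, 1 member rose and 3 fell by adjusted p and 4 rose and 7 fell by unadjusted p, and 6 related genes fell by adjusted p. Deviations of same-numbered libraries from the group means correlated at -0.008 over 10475 genes, so the numbers were not taken to pair the samples.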
